A study of Mus musculus with 9 samples.

Results

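The Ifitm genes encode interferon-induced transmembrane proteins, and the 4 members described here (Ifitm1, Ifitm2, Ifitm3 and Ifitm6) are the rows of the deposited gene tables that carry those symbols. They are 4 of the 23337 genes counted, and all 4 passed the filter on low counts that left 12553 genes for testing. The rule names the genes and uses no measured value, but the members and the gene lists below were chosen with earlier results of these data known. Their shares beside those of all genes are therefore descriptions and not independent evidence. RNA was sequenced from CD11b+ bone marrow cells of 9 male C57BL/6 mice, bought at 3 to 6 weeks of age, to ask what prostate cancer vesicles do to gene expression in these cells with or without nanoparticles that mimic high-density lipoprotein. The 3 PBS mice received 100 µl of buffer into the tail vein on days 1, 3 and 5. The 3 EnzR EV mice received in its place 10 µg of protein in extracellular vesicles (EVs) from enzalutamide-resistant CWR-R1 cells, a human prostate cancer line. The 3 EnzR EV + HDL NP mice had the same EVs and also nanoparticles (HDL NPs) on days 0, 2 and 4, at 1 µM by the sample labels and 100 µM by the methods of the study. No group given nanoparticles alone or EVs of a non-malignant line was analysed here, and marrow was taken 24 h after the last injection. The cells were bound on beads by CD11b after lysis of red cells, so each library is a mixture of granulocytes, monocytes and macrophages. In such bulk RNA fewer cells of a kind and less RNA per cell cannot be told apart.

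IFITM proteins are small membrane proteins of the CD225 superfamily that sit in the plasma membrane and in endosomes and hinder the fusion of incoming enveloped viruses with cell membranes. Ifitm1 protein is found mostly at the cell surface, whereas Ifitm2 and Ifitm3 carry an endocytic signal that sends them to late endosomes and lysosomes. Ifitm6 is a less studied mouse member with no direct human counterpart. Type I and type II interferons raise their transcription through response elements near the start site, and myeloid cells of the marrow express several members without infection. Because the proteins act at membranes where vesicles fuse, and because cholesterol in those membranes affects fusion, the family is of interest in cells that take up EVs.

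The 4 genes lie within a cluster on chromosome 7 that also holds Ifitm5 and spans 69.0 kb in GRCm38, the assembly that mm10 names. In GENCODE M21, Ifitm2 is at chr7:140954837-140955987 on the minus strand and Ifitm1 at chr7:140967221-140969825 on the plus strand. Ifitm3 follows at chr7:141009586-141010770 and Ifitm6 at chr7:141015699-141017924, both on the minus strand. The exonic length is 1094 bases for Ifitm1, 655 for Ifitm2, 678 for Ifitm3 and 905 for Ifitm6, with 2 exons in the single annotated transcripts of Ifitm2 and Ifitm3 and 2 or 3 exons in those of Ifitm1 and Ifitm6. The sequence around a start site is shown for each member because interferon acts on the family there. Each line gives 100 bases before and 30 bases after the single start that the RefSeq promoter table holds for that gene in GRCm38.p6, 5′ to 3′ on the strand of the gene. For Ifitm1 and Ifitm2 this start lies inside the RefSeq gene, which spans chr7:140967429-140969827 and chr7:140954837-140959686, and for Ifitm6 it lies inside the GENCODE span, so that other starts of these 3 genes were not searched. Capitals mark the core of the interferon-stimulated response element, searched as GAAANNGAA on both strands, and the gamma-activated site (GAS), searched as TTCNNNGAA, which is its own reverse complement.

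Ifitm1: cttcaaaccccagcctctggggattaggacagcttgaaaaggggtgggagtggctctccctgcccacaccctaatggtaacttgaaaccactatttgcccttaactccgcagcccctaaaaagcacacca

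Ifitm2: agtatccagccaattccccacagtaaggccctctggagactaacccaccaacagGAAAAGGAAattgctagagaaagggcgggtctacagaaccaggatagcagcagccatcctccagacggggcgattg

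Ifitm3: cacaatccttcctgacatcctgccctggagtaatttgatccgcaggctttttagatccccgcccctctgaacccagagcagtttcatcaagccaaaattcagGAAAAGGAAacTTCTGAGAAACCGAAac

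Ifitm6: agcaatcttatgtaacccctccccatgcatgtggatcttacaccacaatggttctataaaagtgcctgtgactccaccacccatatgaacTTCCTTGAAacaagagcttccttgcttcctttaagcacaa

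Over windows from 250 bases before to 50 after these starts, Ifitm2 held 1 response element core, from 46 to 38 bases before the start. Ifitm3 held 2 cores, at positions 3 to 11 and 20 to 28 counted from the start, with a GAS at 14 to 22 that overlaps the latter of them. Ifitm6 held a GAS from 10 to 2 bases before its start and no core. These letters were not found in the window at the internal Ifitm1 start, which leaves the upstream start of the gene unsearched. Of all 32851 RefSeq mouse windows of this length, 8.56% held the core and 8.3% the GAS, and a match is a description of letters, not of a bound site.

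Library totals ran from 2575776 to 18110561 counts. The ribosomal RNA repeat Rn45s took 20.3% of counts in PBS replicate 1, 42.7% in EnzR EV replicate 1 and 14.2% in EnzR EV replicate 3, against 0.657% to 2.87% in the other 6 libraries. Itgam, which encodes CD11b, was at 1388 to 2005 CPM (counts per 1000000 counts of a library after trimmed-mean, TMM, scaling) in all 9, whereas the summed level of 8 B cell markers was 7.75 to 24.8 CPM. No member was at a limit of detection: the lowest count was 47, for Ifitm2 in EnzR EV replicate 1, and the highest 16278, for Ifitm6 in EnzR EV replicate 2.

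Levels of different members were ranked per kilobase of exon. On this scale the order was Ifitm6 over Ifitm3 over Ifitm2 over Ifitm1 in 9 of 9 libraries. In EnzR EV replicate 1 the order of Ifitm2 and Ifitm1 rests on the exonic lengths used. There Ifitm1 was at 38.8 CPM and Ifitm2 at 25.7, but at 35.5 and 39.25 CPM per kilobase. In the PBS mice the levels were 650.1 ± 110 CPM per kilobase for Ifitm6 (SD, n = 3), 263 ± 41.9 for Ifitm3, 124 ± 44.9 for Ifitm2 and 18.9 ± 6.86 for Ifitm1. The groups of values of neighbours in this order did not overlap in the PBS mice. Ifitm6 thus made up 61.3% ± 4.42 of the family total, Ifitm3 25.3% ± 6.83, Ifitm2 11.5% ± 3.33 and Ifitm1 1.85% ± 0.869. The family total itself was 1056 ± 107 CPM per kilobase in PBS mice, 1191 ± 421 in EnzR EV mice and 1190 ± 338 in EnzR EV + HDL NP mice. The spread within the EV-treated groups exceeded the gap between any of these means. The share of Ifitm1 was 3.45% to 3.85% in the EnzR EV mice, 1.12% to 2.81% in PBS mice and 1.41% to 2.23% in EnzR EV + HDL NP mice, so that the EnzR EV range stood apart from both others.

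**Figure D1:**
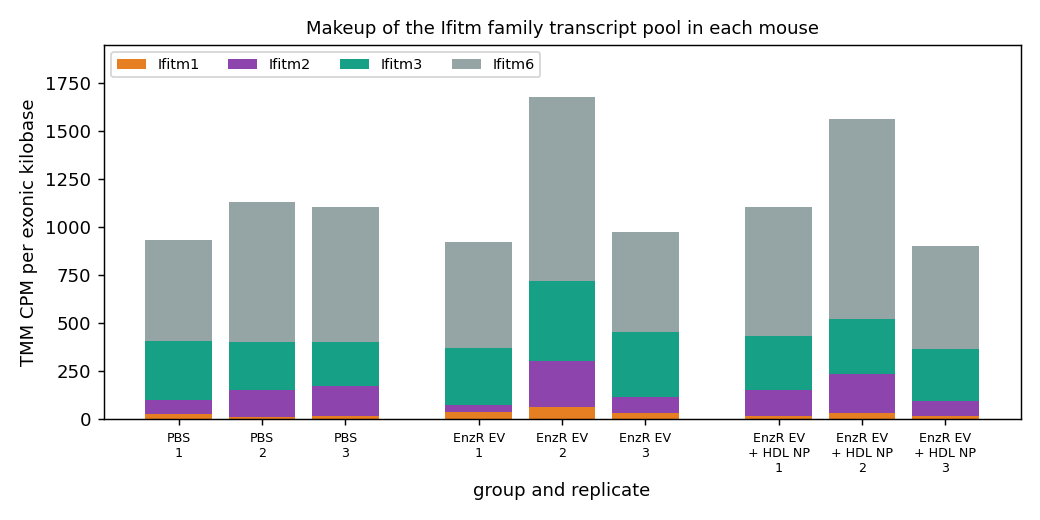
Level of each Ifitm gene in TMM CPM per exonic kilobase, stacked for each of the 9 mice, with group and replicate on the x axis. Ifitm6 is the largest layer and Ifitm1 the smallest in 9 of 9 libraries, and replicate 2 of both EV-treated groups has the tallest column in its group.

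The first comparison asked what EVs alone did to the family. Ifitm1, the member that acts at the cell surface, was at 28.7, 13.8 and 19.6 CPM in PBS replicates 1 to 3. In the EnzR EV mice it was at 38.8, 67.8 and 36.9 CPM. All 3 EnzR EV mice lay above all 3 PBS mice, with replicate 2 well above the other 2. The value of EnzR EV replicate 1 came from 71 counts, scaled by a TMM factor of 0.71. By library size only, the log2 fold change was 1.12. The mean was 47.8 ± 17.3 CPM against 20.7 ± 7.5, a 2.37-fold difference by edgeR with a 95% interval of 1.29 to 4.36 (log2 1.25, SE 0.397). The unadjusted p was 0.00996, the rank by p was 76 of 12553, and the adjusted p was 0.928. The difference was therefore not called, and the exact permutation test gave p = 0.1, the smallest that 3 against 3 mice allow. Of all genes tested, 0.844% had a larger log2 fold change. With limma voom and sample quality weights, which give less weight to deviating libraries, the adjusted p of Ifitm1 was 0.0201, in an analysis that called 1990 genes. Between same-numbered mice the log2 difference was 0.436, 2.28 and 0.909, and a replicate block gave 1.15 (adjusted p = 0.739 by edgeR), in a fit that called 1 gene where the unblocked fit called 0. Over all 25 alternative settings its log2 fold change was 0.915 to 2.03 and the adjusted p 0.0201 to 1.

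Ifitm3, the late endosomal member for which antiviral action is best known, was at 210, 170 and 155 CPM in PBS replicates 1 to 3. In the EnzR EV mice it was at 201, 281 and 232 CPM. EnzR EV replicate 1 lay below PBS replicate 1, and the EnzR EV mouse was the higher in 8 of 9 pairs. By edgeR the difference was 1.34-fold (95% interval 1.02 to 1.76, log2 0.42, SE 0.176) with an unadjusted p of 0.0357 and an adjusted p of 0.928. Quality weights in voom gave an adjusted p of 0.0183, and the exact permutation test gave 0.2. Without EnzR EV replicate 2 the log2 fold change was 0.311, and that of Ifitm1 was 0.915.

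Ifitm2 and Ifitm6 showed no such separation. Ifitm2, which traffics as Ifitm3 does, was at 47.8, 92.6 and 103 CPM in PBS mice. In the EnzR EV mice it was at 25.7, 159 and 52.9 CPM, with both the lowest and the highest of the 9 libraries in this group. The log2 difference was -0.0032 (SE 0.564, adjusted p = 0.999 by edgeR) and its interval ran from -1.25 to 1.25, so a change of either sign by over 2-fold lies within it. Ifitm6, the most abundant member, was at 474, 656 and 635 CPM in PBS mice and at 498, 866 and 470 CPM in EnzR EV mice. Its log2 difference was 0.057 (SE 0.298, interval -0.602 to 0.716, adjusted p = 0.986 by edgeR). Leaving out each mouse gave -0.975 to 0.387 for Ifitm2 and -0.253 to 0.209 for Ifitm6.

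**Figure D2:**
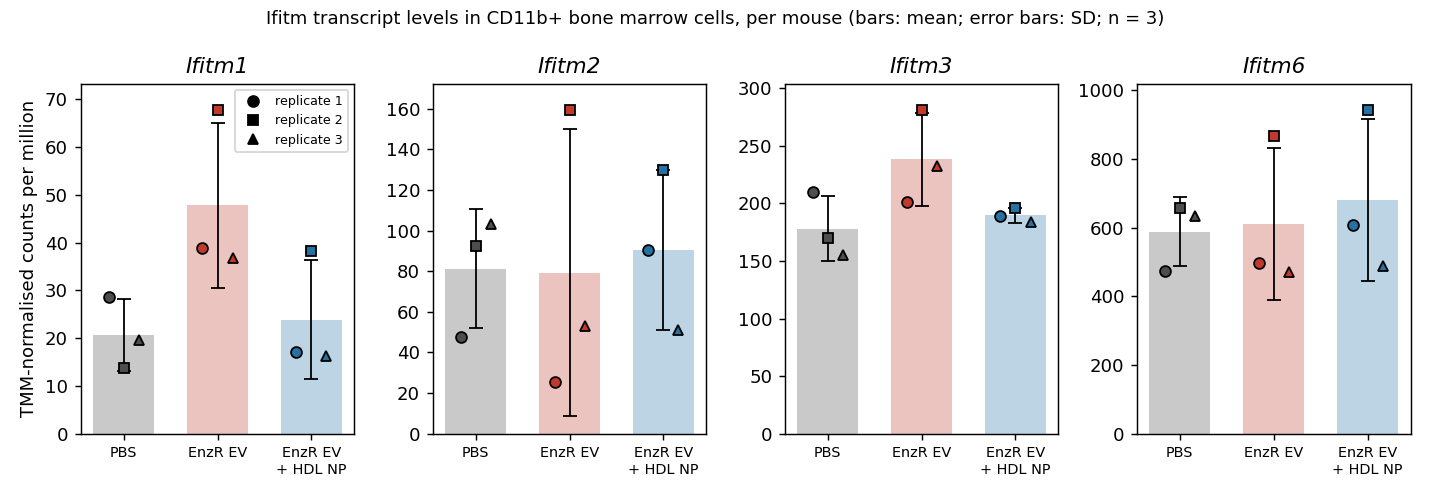
TMM-normalised CPM of each Ifitm gene in each mouse (points, shaped by replicate number), with bars for the group mean and error bars for the SD of 3 mice. The EnzR EV points of Ifitm1 sit between 36.9 and 67.8, above all PBS points, and for Ifitm3 the EnzR EV + HDL NP points sit below all EnzR EV points, whereas all groups overlap for Ifitm2 and Ifitm6.

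No member was called in this comparison by edgeR or by DESeq2 at an adjusted p under 0.05. The background in edgeR was 0 of 12553 genes (0%), with 436 at an unadjusted p under 0.05, and in DESeq2 11 genes (0.0876%). Higher with an unadjusted p under 0.05 were 2 of the 4 members, against 1.55% of all genes. Higher in every EnzR EV mouse than in every PBS mouse was 1 of the 4 (Ifitm1), against 3.41%. The median log2 fold change of the 4 members was 0.24, and that of all genes -0.027.

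The second comparison asked whether mice given nanoparticles with the EVs differed from the EV mice. In the EnzR EV + HDL NP mice Ifitm1 was at 17.1, 38.2 and 16.3 CPM. Replicates 1 and 3 lay within the range of the PBS mice and replicate 2 between the EnzR EV values, so that 1 of 9 pairs put the EnzR EV + HDL NP mouse higher. By edgeR the level was 0.493-fold that of EnzR EV mice (95% interval 0.27 to 0.898, log2 -1.02, SE 0.391, unadjusted p = 0.0251, adjusted p = 0.461). The exact permutation test gave 0.2. Without EnzR EV + HDL NP replicate 2 the log2 difference was -1.56, and without EnzR EV replicate 2 it was -0.682.

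Ifitm3 was at 189, 196 and 184 CPM in the EnzR EV + HDL NP mice, the narrowest group of any member, with a coefficient of variation of 3.27%. All 3 values lay below the lowest EnzR EV value of 201 CPM, by a small margin. That value came from 368 counts in EnzR EV replicate 1, scaled by a TMM factor of 0.71, and the order depends on this scaling. By library size only, the log2 difference was -0.122. The log2 difference was -0.33 by edgeR (SE 0.175, interval -0.721 to 0.055, unadjusted p = 0.0851, adjusted p = 0.471), and the exact permutation p was 0.1. Ifitm2 was at 90.3, 130 and 51.0 CPM and Ifitm6 at 607, 942 and 489 CPM, each overlapping the EnzR EV group. Their log2 differences were 0.15 (SE 0.563) and 0.15 (SE 0.298), with adjusted p of 0.908 and 0.823 by edgeR. Leaving out each mouse gave -0.242 to 1.13 for Ifitm2 and -0.183 to 0.465 for Ifitm6.

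No member was called in this comparison either. The edgeR background was again 0 genes (0%), with 1325 at an unadjusted p under 0.05, and DESeq2 called 1 gene (0.00797%). Lower with an unadjusted p under 0.05 was 1 of the 4 members (Ifitm1), against 6.97% of all genes. Lower in every mouse on the TMM scale was 1 of the 4 (Ifitm3), against 8.55%. The median log2 difference of the members was -0.092, and that of all genes 0.033.

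Against PBS, the EnzR EV + HDL NP mice showed small differences in all 4 members. This comparison shares the PBS libraries with the first and the EnzR EV + HDL NP libraries with the second, and is not independent of them. The log2 differences by edgeR were 0.23 for Ifitm1 (interval -0.639 to 1.09), 0.15 for Ifitm2 (-1.09 to 1.39), 0.09 for Ifitm3 (-0.297 to 0.477) and 0.21 for Ifitm6 (-0.451 to 0.865). None passed the test, with adjusted p of 1.0 each. All 4 were positive, where 48.9% of all genes were, and each turned negative when a single mouse was left out. Without EnzR EV + HDL NP replicate 2 Ifitm1 was at -0.301, Ifitm2 at -0.21 and Ifitm6 at -0.108, and without PBS replicate 3 Ifitm3 was at -0.01. The background was 0 genes by edgeR (0%), with 268 at an unadjusted p under 0.05, and 8 by DESeq2 (0.0637%). At an unadjusted p under 0.05, 0 of the 4 members were higher, against 1.02% of all genes, and 0 of the 4 were above PBS in every mouse, against 6.97%.

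**Figure D3:**
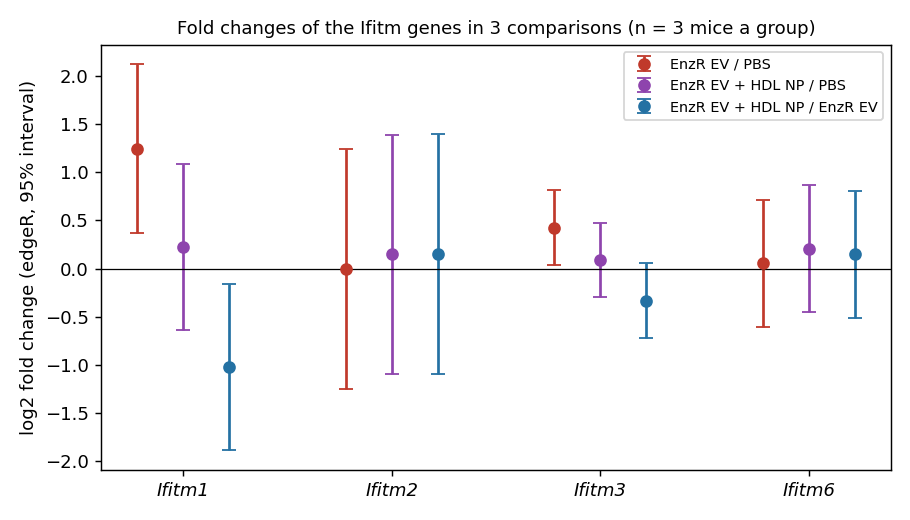
Log2 fold changes of the 4 Ifitm genes by edgeR, with 95% intervals, for EnzR EV against PBS, EnzR EV + HDL NP against PBS and EnzR EV + HDL NP against EnzR EV. The interval for EnzR EV against PBS lies above 0 for Ifitm1 and Ifitm3, and only the Ifitm1 interval lies below 0 for EnzR EV + HDL NP against EnzR EV, before any adjustment over genes.

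Ratios between members within a library do not depend on its scaling, and are given here on the CPM scale, without exon length, to compare mice and not genes. The log2 ratio of Ifitm1 to Ifitm6 CPM was -3.67, -3.68 and -3.67 in the EnzR EV mice, a spread of 0.003 (SD) that lies far below the counting error of 0.178 in replicate 1 alone, where Ifitm1 had 71 counts, and so says nothing of a tight ratio. In PBS mice it was -4.04, -5.57 and -5.02, and in EnzR EV + HDL NP mice -5.15, -4.62 and -4.90. The EnzR EV mice were thus above all mice of the other groups, by a mean of 1.21 over PBS and 1.22 over EnzR EV + HDL NP (exact permutation p = 0.1 for each, the smallest possible). The ratio of Ifitm1 to Ifitm3 was also above PBS in every EnzR EV mouse, by 0.8 on the log2 scale, but the EnzR EV and EnzR EV + HDL NP mice overlapped. That of Ifitm1 to Ifitm2 overlapped between EnzR EV and PBS mice and was lower in every EnzR EV + HDL NP than in every EnzR EV mouse, by a mean log2 difference of -1.55. Ratios of Ifitm2 to Ifitm3, of Ifitm2 to Ifitm6 and of Ifitm3 to Ifitm6 overlapped between the groups in every comparison. Ifitm1 to Ifitm6 was thus the only ratio that set the EnzR EV mice apart from both other groups. Ifitm1 alone overlapped between EnzR EV and EnzR EV + HDL NP mice, so there the separation also draws on Ifitm6. The share of all genes with such a separation was not computed.

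Across the 9 mice the closest pairs of members were as follows. Log2 CPM of Ifitm2 and Ifitm6 had a Pearson r of 0.864 (Spearman rho 0.817), and those of Ifitm1 and Ifitm3 an r of 0.843 (rho 0.767). The other 4 pairs had an r of 0.087 to 0.325. After subtraction of group means the r was 0.878 for Ifitm2 with Ifitm6 and 0.648 for Ifitm1 with Ifitm3. It was 0.593 for Ifitm1 with Ifitm6, 0.44 for Ifitm1 with Ifitm2, 0.407 for Ifitm2 with Ifitm3 and 0.29 for Ifitm3 with Ifitm6, so that within groups all pairs had a positive r and the pairing of Ifitm1 with Ifitm3 was close to that of Ifitm1 with Ifitm6. These are descriptions over 9 libraries that share a scaling and differ in depth.

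The Ifitm2 and Ifitm6 pair went with the makeup of the libraries. The 4 libraries with the lowest totals (PBS replicate 1, EnzR EV replicates 1 and 3 and EnzR EV + HDL NP replicate 3) were also the 4 with the highest Rn45s shares. In them Ifitm2 was at 25.7 to 52.9 CPM, against 90.3 to 159 CPM in the other 5 libraries. Ifitm6 was at 470 to 498 CPM in these 4 and at 607 to 942 in the other 5. The 9 measured genes of a mature neutrophil list (among them S100a8, S100a9, Mmp9, Camp and Ltf) split the same way. Their sum was 30450 to 82210 CPM in these 4 and 101500 to 145500 in the other 5. Ly6g of this list was not among the genes counted. The list holds granule genes such as Camp and Ltf that are also transcribed before maturity, so its sum does not measure mature cells alone. Ifitm1 and Ifitm3 did not split so, with 16.3 to 38.8 against 13.8 to 67.8 CPM for Ifitm1 and 184 to 232 against 155 to 281 CPM for Ifitm3. The part of depth, ribosomal RNA and neutrophil content in these levels was not tested.

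**Figure D4:**
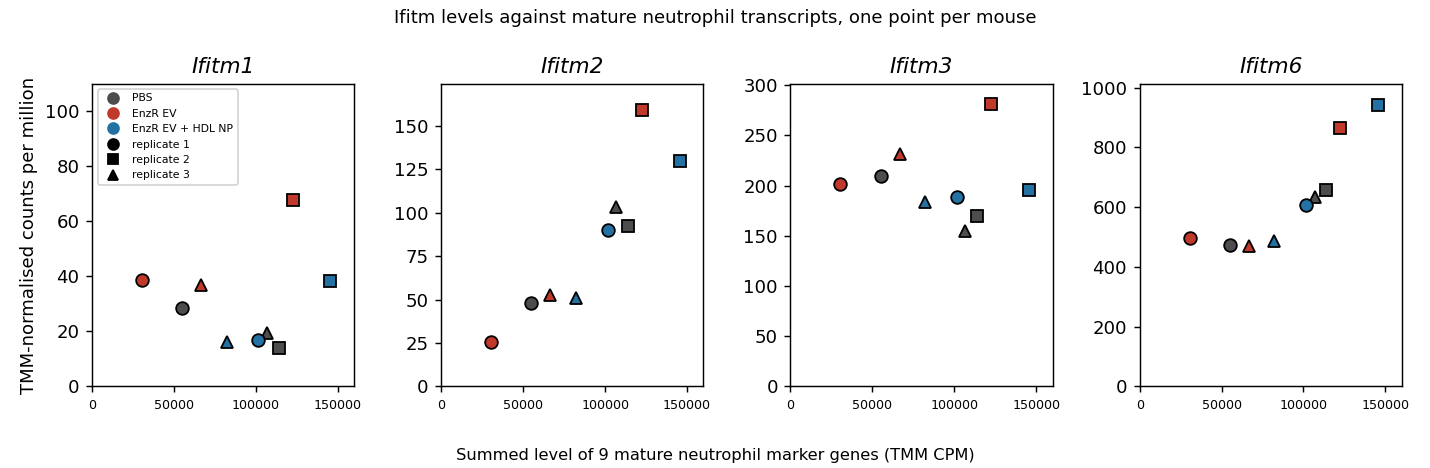
TMM-normalised CPM of each Ifitm gene against the summed CPM of the 9 measured genes of the neutrophil list, with 1 point per mouse. Points are coloured by group and shaped by replicate. Ifitm2 and Ifitm6 are lowest in the 4 libraries with marker sums up to 82210 CPM, and the points of Ifitm1 and Ifitm3 follow no such line.

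The levels within each set of libraries were as follows. Among the 4 low-total libraries Ifitm1 was at 28.7 CPM in the PBS mouse, 36.9 and 38.8 in the EnzR EV mice and 16.3 in the EnzR EV + HDL NP mouse. Among the other 5 it was at 13.8 and 19.6 CPM in PBS mice, 67.8 in the EnzR EV mouse and 17.1 and 38.2 in the EnzR EV + HDL NP mice. As the EnzR EV and PBS groups do not overlap for Ifitm1, their order is the same in any split of the libraries and is no check of library makeup. Ifitm3 in the low-total set was at 210 CPM in the PBS mouse and at 201 and 232 in the EnzR EV mice, and in the other set at 155 and 170 against 281. For Ifitm2 the values were 47.8 against 25.7 and 52.9 in the low-total set, and 92.6 and 103 against 159 in the other. Those of Ifitm6 were 474 against 470 and 498, and 634.5 and 656 against 866. With a term for these 4 libraries in edgeR, the EnzR EV against PBS log2 difference was 1.30 for Ifitm1 (adjusted p = 1.0), 0.43 for Ifitm3, 0.249 for Ifitm2 and 0.23 for Ifitm6. Leaving out the 3 libraries with over 10% Rn45s, which keeps a single EnzR EV mouse (replicate 2) whose spread is assumed to match the others, gave 2.03 for Ifitm1, 0.795 for Ifitm3 and 0.707 for Ifitm2, with adjusted p of 0.381, 0.187 and 0.994.

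A set of 6 early granulocyte genes (Mpo, Elane, Prtn3, Ctsg, Ms4a3 and Cebpe), which mark the precursors of neutrophils, was summed for each mouse. The level was 2212 to 2291 CPM in EnzR EV mice, 1711 to 2072 in PBS mice and 1073 to 1920 in EnzR EV + HDL NP mice. The EnzR EV mice were above all others in this sum, as they were in the ratio of Ifitm1 to Ifitm6. Gene by gene the set was not of a single sign in EnzR EV against PBS, with 4 higher and 2 lower, a median log2 of 0.069 and 0 above PBS in every mouse, against 3.41% of all genes. Between EnzR EV + HDL NP and EnzR EV mice 1 was higher and 5 lower (median -0.474), 2 of the 6 with an unadjusted p under 0.05, against 6.97% of all genes, and 2 below in every mouse, against 8.55%. Genes of the neutrophil list summed to 55050 to 113900 CPM in PBS mice, 30450 to 122500 in EnzR EV mice and 82210 to 145500 in EnzR EV + HDL NP mice. EnzR EV replicate 2, at 122500 CPM, lay above all PBS mice. Their fitted log2 differences were negative in 9 of 9 for EnzR EV against PBS (median -0.235), where 46.5% of all genes had a positive one. They were positive in 9 of 9 for EnzR EV + HDL NP against EnzR EV (median 0.181), where 52.8% of all genes were. By edgeR 0 were called, against 0% of all genes. Monocyte markers summed to 2168 to 2462 CPM in PBS mice, 1442 to 2447 in EnzR EV mice and 1837 to 2674 in EnzR EV + HDL NP mice, and 8 of 8 had a negative log2 difference in EnzR EV against PBS (median -0.306), a comparison in which 46.5% of all genes had a positive one. Macrophage markers summed to 628 to 1167 CPM in PBS mice, 521 to 648 in EnzR EV mice and 599 to 772 in EnzR EV + HDL NP mice, with 7 of 8 lower in EnzR EV than in PBS mice (median -0.609). Erythroid markers, at 52.8 to 65.7 CPM in PBS mice and 17.9 to 54.7 in EnzR EV mice, were lower in 6 of 6 tested by the same comparison (median log2 -1.06). By edgeR 0 of these were called, against 0% of all genes. The part of these cells in the Ifitm1 levels was not tested.

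The genes outside the family whose profile over the 9 libraries was nearest to each member, by Pearson r of log2 CPM, differed between members. For Ifitm1 they were Hdac3, a histone deacetylase (r = 0.945, rho = 0.95), Gnb5, a G protein subunit (0.937, 0.967), and Steap4, a metalloreductase (0.934, 0.9). For Ifitm3 they were Vim, which encodes vimentin (0.906, 0.967), Mthfd2 of mitochondrial folate metabolism (0.9, 0.867) and Iqgap3 (0.881, 0.9). For Ifitm2 they were the general transcription factor Gtf2b (0.984, 0.933), the histone gene Hist1h3f (0.983, 0.983) and Spcs1 of the signal peptidase (0.982, 0.867). For Ifitm6 they were the ubiquitin-conjugating enzyme Ube2d3 (0.937, 0.983), Ssu72 (0.926, 0.983) and Mtmr14 (0.925, 0.917). These are the top 3 of 12549 other genes for each member over 9 points, and no p is given. A high r does not mean a like range. Hdac3 was at 33.2 to 39.5 CPM and Iqgap3 at 59.8 to 73.7, and Gnb5 was low, at 1.33 to 3.62 CPM.

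Other interferon-stimulated genes were set beside the family. Of 29 tested effector genes, such as Ifit1, Rsad2, the Oas and the Mx genes, 28 were higher in EnzR EV than in PBS mice by their fitted log2 fold change, with a median of 0.736, where 46.5% of all genes were higher. By DESeq2 3 of them passed at an adjusted p under 0.05, against 0.0876% of all genes, and by edgeR 0, against 0%. Higher with an unadjusted p under 0.05 were 11 of the 29, against 1.55%. In every EnzR EV mouse 7 of the 29 were above all PBS mice, against 3.41% of all genes. Ifit1, an RNA-binding antiviral protein, was at 24.1, 15.8 and 13.2 CPM in PBS mice and at 94.7, 62.5 and 61.0 CPM in EnzR EV mice (log2 2.04, SE 0.273, adjusted p = 0.2 by edgeR and 4.03e-08 by DESeq2). Ifitm1 had a larger log2 fold change than 26 of the 29, Ifitm3 than 10, Ifitm6 than 2 and Ifitm2 than 1.

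In EnzR EV + HDL NP mice against PBS, 29 of the 29 effectors were higher, against 48.9% of all genes, with log2 fold changes of 0.311 to 1.91 and a median of 0.855, and 27 were above PBS in every mouse, against 6.97% of all genes. By the point estimates of the main fit the 4 Ifitm genes, at 0.09 to 0.23, lay below all 29. Leaving out 1 mouse moved Ifitm1 up to 0.517, Ifitm2 to 0.442 and Ifitm6 to 0.402, above the lowest effector of the main fit. Ifitm3 reached 0.222, below it. The effectors without those mice are not given here, so these values come from different fits and do not settle the order. Rsad2, the antiviral radical enzyme viperin, was at 130, 111 and 153 CPM in these mice against 70.9, 68.3 and 59.2 in PBS (log2 0.99, SE 0.211, adjusted p = 1.0 by edgeR and 0.0216 by DESeq2). Between the EV-treated groups the effectors did not share a sign, as 19 of the 29 were higher with HDL NPs and 10 lower, median 0.301. Ifitm1, at -1.02 in the main fit, was lower than all 29. Without EnzR EV replicate 2 it was at -0.682, and the effectors of that fit are not given here. Of the effectors Ifit1 had the lowest value, -0.896, with 44.9, 31.5 and 39.6 CPM in EnzR EV + HDL NP mice, all under the EnzR EV values. Mx1, a dynamin-like antiviral GTPase, went the other way, with 39.7, 30.3 and 30.3 CPM in EnzR EV + HDL NP mice against 15.3, 23.7 and 15.8 in EnzR EV mice (log2 0.84, SE 0.222, adjusted p = 0.461 by edgeR).

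**Figure D5:**
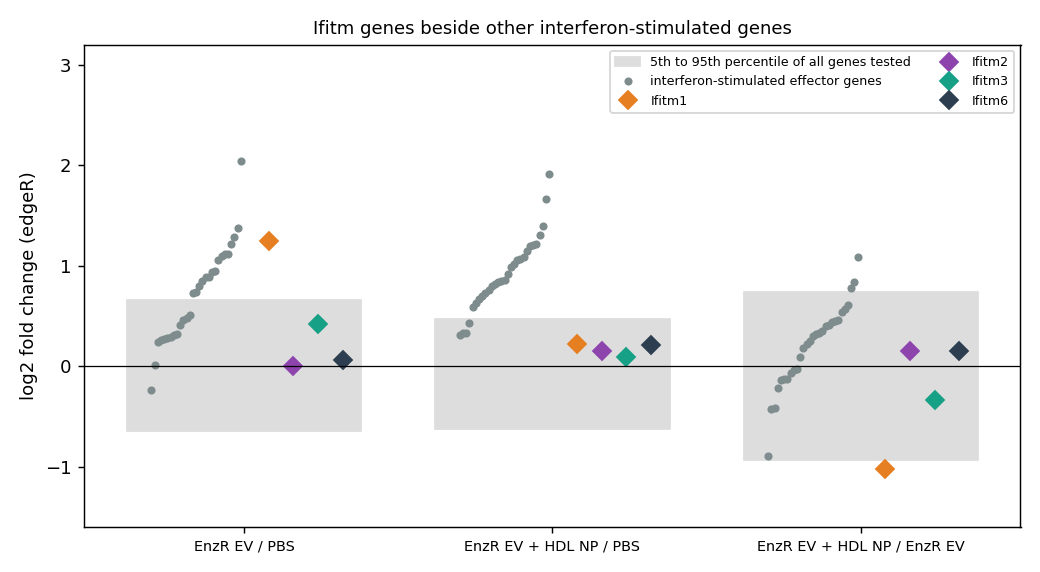
Log2 fold changes by edgeR of the 4 Ifitm genes (diamonds) and of 29 interferon-stimulated effector genes (grey dots, sorted) in 3 comparisons, over a band from the 5th to the 95th percentile of all 12553 genes. By the point estimates of the main fit, the Ifitm genes lie below all 29 effectors in EnzR EV + HDL NP against PBS. In EnzR EV + HDL NP against EnzR EV, Ifitm1 lies below them all by the same estimates.

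Interferon receptors and their signalling proteins showed smaller differences. Of 13 tested, 9 were higher and 4 lower in EnzR EV than in PBS mice, with a median of 0.083, where 46.5% of all genes were higher. By edgeR 0 of the 13 were called, against 0% of all genes, and by DESeq2 0, against 0.0876%. Against PBS, 8 were higher and 5 lower in EnzR EV + HDL NP mice (median 0.179), and 4 of the 13 were above PBS in every mouse, against 6.97% of all genes. Stat2, a transcription factor of the type I interferon response, was at 38.7, 47.8 and 48.7 CPM in PBS mice, 36.7, 64.4 and 52.1 in EnzR EV mice and 83.9, 63.6 and 76.4 in EnzR EV + HDL NP mice. Its EnzR EV + HDL NP against PBS log2 difference was 0.72 (SE 0.215, unadjusted p = 0.00661, adjusted p = 1.0 by edgeR), without overlap of the groups.

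Of the proteins known to bind or modify IFITMs, 0 were called by edgeR or DESeq2 in any comparison. Of all genes, edgeR called 0% in each comparison and DESeq2 at most 0.0876%, so this count is that of the background. Of 11 tested, 2 were higher and 9 lower in EnzR EV than in PBS mice, with a median log2 of -0.173, where 46.5% of all genes were higher. Against EnzR EV mice, 10 of the 11 were higher in EnzR EV + HDL NP mice, where 52.8% of all genes were. Both comparisons use the EnzR EV libraries, of which replicates 1 and 3 have high Rn45s shares. Zdhhc20, a palmitoyltransferase that attaches the lipid that anchors IFITM3, was at 128, 161 and 148 CPM in PBS mice and at 48.7, 135 and 90.0 in EnzR EV mice (log2 -0.66, SE 0.288, adjusted p = 0.928 by edgeR). In the EnzR EV + HDL NP mice it was at 131, 150 and 144 CPM. Its lowest values were in those replicates 1 and 3, and the part of this in the difference was not tested. Abhd16a, which removes the lipid, Nedd4, which ubiquitinates IFITM3, and Cd81, a tetraspanin partner of IFITM1, had log2 differences of -0.291, 0.13 and -0.253 in the comparisons where they ranked among the first 3 by p (EnzR EV against PBS for Abhd16a, and EnzR EV + HDL NP against PBS for the other two).

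The remaining genes of the CD225 superfamily were expressed at low levels. Ifitm5, the bone-restricted member inside the cluster, was at 0.352 to 1.67 CPM, and Ifitm10, listed under an older name, at 1.06 to 3.57 CPM. These were the only ones of 10 to pass the filter. Neither was called by edgeR in any comparison, where it called 0% of all genes. Ifitm7 had 12 counts over all 9 libraries, and Prrt1, Prrt2, Trarg1, Syndig1, Syndig1l, Tmem91 and Tmem233 had 58 or fewer. Beside the cluster, Pgghg, the nearest gene on the Ifitm5 side, was at 25.2 to 38.2 CPM, with log2 differences of 0.176 (SE 0.202) for EnzR EV against PBS and -0.111 (SE 0.201) for EnzR EV + HDL NP against EnzR EV. Nlrp6 and BC024386 beyond it had 36 and 4 counts in all. B4galnt4 and Pkp3 on the Ifitm6 side were at up to 2.19 and 5.45 CPM. Neither was called by edgeR, which called 0% of all genes.

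Reads of Ifitm2 are the least certain of the family. Of its 75-base windows (the read length), 42.0% also occur in other annotated transcripts, mostly in Gm45717. This transcript on the same strand overlaps Ifitm2 and is not among the genes counted. Windows shared with it may lie at the same place in the genome, which was not checked. Pseudogenes share 13.1%. The share was 0.582% for Ifitm1, 0.662% for Ifitm3 and 0% for Ifitm6, and 0 windows were shared between members.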

How the data were processed

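The authors trimmed reads with cutadapt 1.13, removed those matching ribosomal RNA, aligned them to mm10 with STAR and counted them per gene with HTSeq 0.6.1p1, and deposited raw counts for each mouse, with no normalization. Whether counting used strand is not given in the sources used here. Groups and replicate numbers came from the sample labels. The labels do not say what a number shares, but same-numbered PBS and EnzR EV mice deviated together in all 3 pairs (r = 0.473, 0.492 and 0.131). PBS replicate 3 correlated better with EnzR EV replicate 2 (0.429), and PBS replicate 2 with EnzR EV replicate 3 had an r of 0.156. A replicate block was fitted as an alternative. In the other 2 comparisons not every pair had an r over 0.1. P-values measure the spread between 3 mice a group. Counts were filtered with filterByExpr, scaled by TMM and tested with the quasi-likelihood test of edgeR 4.0.16 (R 4.3.3) on all 9 libraries. DESeq2 1.42.0 and limma 3.58.1 served as alternatives. Adjusted p-values are Benjamini-Hochberg over all genes tested, with a threshold of 0.05. Log2 CPM used a prior count of 2, and exact permutation tests were two-sided. The pipeline was tested on simulated data. The members and gene lists were chosen with earlier results of these data known. Named genes were the 4 members, the CD225 list, the genes on either side of the cluster (3 a side, of which Gm39114 was not matched by symbol), genes among the 3 with the smallest p of a list, and the 3 most similar profiles for each member. Itgam, Rn45s and the cell type markers were named outside this rule, to describe the libraries. Older symbols were matched through RefSeq synonyms. Sequences are from RefSeq, GRCm38.p6, and all 4 members matched. Protein sequences were not used here.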

Additional observations from a re-analysis of the deposited data

How the results depend on the processing

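Ifitm1 and Ifitm3 kept the sign of their EnzR EV against PBS and EnzR EV + HDL NP against EnzR EV differences under all 25 settings, but not the size. Some of these settings could hardly turn a sign. Leaving out a mouse of the group not compared barely touches the values compared. The groups do not overlap for Ifitm1 in EnzR EV against PBS, nor for Ifitm3 in EnzR EV + HDL NP against EnzR EV. There, leaving out any mouse could not turn the sign. In the latter comparison Ifitm3, at -0.333 in the main fit, was at -0.122 by library size only, where the median of all genes was 0.24. It was at -0.221 without EnzR EV replicate 2 and at -0.572 without the 3 libraries over 10% Rn45s. Only quality weights in limma voom (1.276 and 0.507 for EnzR EV against PBS) brought an adjusted p under 0.05. With a replicate block edgeR called 1 gene in EnzR EV against PBS and Ifitm6 was at -0.003. It changed no other call.

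Genes called in EnzR EV against PBS were 11 by DESeq2, 5 by DESeq2 on 6 libraries, 1990 with quality weights, 1 without a filter, 5 without the 2 lowest totals, 10 without the 3 libraries over 10% Rn45s (chosen after seeing the data, as was the term for the 4 lowest totals) and 0 to 2 leaving out each mouse. In EnzR EV + HDL NP against PBS they were 8, 59 and 10 for the first 3 of these settings, and 0 leaving out each mouse. In EnzR EV + HDL NP against EnzR EV they were 1, 27 and 653, then 1 each for edgeR on 6 libraries, without the 2 lowest totals and without the Rn45s libraries, and 0 to 1 leaving out each mouse.

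Signs turned as follows, on the log2 scale, and the cause was not tested. Ifitm2, EnzR EV against PBS: 0.012 with DESeq2 size factors, 0.005 on 6 libraries, 0.008 without Rn45s, hemoglobin and mitochondrial genes, 0.132 without the 2 lowest totals, 0.707 without the Rn45s libraries, 0.249 with the term for 4 libraries, and -0.975 to 0.387 leaving out each mouse. Ifitm6 in this comparison was at -0.341 with quality weights, -0.099 by library size only (which moved the median of all genes to -0.181) and -0.253 to 0.209 leaving out each mouse. In EnzR EV + HDL NP against PBS, Ifitm2 was at -0.08 with quality weights, -0.113 without the 2 lowest totals and -0.113 without the Rn45s libraries. Leaving out each mouse gave -0.301 to 0.517 for Ifitm1, -0.21 to 0.442 for Ifitm2, -0.01 to 0.222 for Ifitm3 and -0.108 to 0.402 for Ifitm6. In EnzR EV + HDL NP against EnzR EV, Ifitm2 was at -0.245 without the 2 lowest totals, -0.819 without the Rn45s libraries and -0.102 with the term, and Ifitm6 at -0.353 without the Rn45s libraries and -0.043 with the term. Leaving out each mouse gave -0.242 to 1.13 for Ifitm2 and -0.183 to 0.465 for Ifitm6. Of the EnzR EV mice, leaving out replicate 2 moved Ifitm2 against PBS to -0.975 and leaving out replicate 1 to 0.387. Depth was lowest in EnzR EV replicate 1, at 2575776 counts, with 71 of Ifitm1 and 47 of Ifitm2.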
